A study of Mus musculus with 4 samples.

Results

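Ptn, Mdk, Ntrk2, Ntrk3, Bdnf and Ngfr were followed across marker-gated cells of mouse lymph nodes, 6 genes of the 32285 in the deposited matrices. They were chosen by name because earlier results from the same files had shown several of them to differ between genotypes, so their differences between genotypes are given as descriptions without a test. Stromal cells that stained for neither CD45 nor CD31 were sorted from axillary, brachial and inguinal nodes of female C57BL/6 mice aged 12 weeks and profiled by droplet single-cell RNA sequencing of transcript 3′ ends. Control 1 (6 mice pooled) carried Ccl19-Cre and the R26R-EYFP reporter but no floxed Notch2. The conditional knockout library of the same batch, cKO 1 (6 mice pooled), combined Ccl19-Cre and R26R-EYFP with Notch2 fl/fl, and its mice were not littermates of control 1. Control 2 (Notch2 fl/fl, 3 mice pooled) has a genotype label without Cre, although its title names Ccl19-Cre. Littermates of it with both Notch2 fl/fl and Ccl19-Cre made up cKO 2 (3 mice pooled). Cre under the Ccl19 promoter acts in fibroblastic reticular cells, and other lineages of the node are not its target. Each group held 2 libraries, 1 per batch, and mice within a library cannot be told apart.

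Pleiotrophin (Ptn) and midkine (Mdk) form a small family of secreted heparin-binding growth factors that act through receptor phosphatases, Alk, syndecans, integrins and Lrp1. Brain-derived neurotrophic factor (Bdnf) belongs to the neurotrophins, whose receptors include the tyrosine kinases TrkB (Ntrk2) and TrkC (Ntrk3) and the shared receptor p75 (Ngfr). Outside the nervous system, Ngfr marks reticular and follicular stroma of lymphoid organs, and reticular fibroblasts of the node make the chemokines and survival factors that hold lymphocytes in their zones.

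Upstream sequences of Ptn and Ntrk2, lower in cKO fibroblasts, and of Ngfr, higher in them, are shown because Notch receptors act on DNA through RBPJ, whose core letters are TGGGAA. These are the 250 bases before the RefSeq start site in GRCm38.p6, read 5′ to 3′ on the gene's strand, with capitals for TGGGAA or its reverse complement TTCCCA. The windows lie at chr6:36810180-36810429 (minus strand) for Ptn, chr13:58806319-58806568 (plus strand) for Ntrk2 and chr11:95587699-95587948 (minus strand) for Ngfr.
Ptn: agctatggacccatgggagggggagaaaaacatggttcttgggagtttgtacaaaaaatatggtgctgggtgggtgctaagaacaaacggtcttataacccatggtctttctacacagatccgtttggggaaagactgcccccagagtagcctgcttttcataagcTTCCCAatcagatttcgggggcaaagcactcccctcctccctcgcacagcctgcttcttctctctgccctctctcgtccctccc
Ntrk2: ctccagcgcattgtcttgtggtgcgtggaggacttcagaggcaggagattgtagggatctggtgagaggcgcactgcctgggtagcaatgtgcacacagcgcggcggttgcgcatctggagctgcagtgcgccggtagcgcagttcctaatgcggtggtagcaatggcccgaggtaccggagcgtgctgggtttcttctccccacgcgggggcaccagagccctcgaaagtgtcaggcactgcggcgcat
Ngfr: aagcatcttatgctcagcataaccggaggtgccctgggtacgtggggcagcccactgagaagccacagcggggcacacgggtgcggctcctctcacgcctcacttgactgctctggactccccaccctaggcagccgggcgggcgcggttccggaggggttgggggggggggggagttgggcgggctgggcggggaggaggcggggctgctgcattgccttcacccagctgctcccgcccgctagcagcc
Ptn held 1 match, whose first base lies at -84 from the start site, and the Ntrk2 and Ngfr windows held 0. Of 32851 upstream windows of this length in the table, 21.6% held the letters on either strand, so a match is common, and it is a description of the letters and not a binding site.

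In the annotation of the mm10 build, Ptn (ENSMUSG00000029838) spans 36714929 to 36810220 on chromosome 6 and Mdk (ENSMUSG00000027239) spans 91929805 to 91932297 on chromosome 2. Ntrk2 (ENSMUSG00000055254) lies at 58806569 to 59133970 on chromosome 13, Ntrk3 (ENSMUSG00000059146) at 78175959 to 78738012 on chromosome 7, Bdnf (ENSMUSG00000048482) at 109674700 to 109727007 on chromosome 2 and Ngfr (ENSMUSG00000000120) at 95568818 to 95587735 on chromosome 11. No other annotated gene overlaps Ptn, Mdk or Ngfr. Ntrk2 and Ntrk3 each overlap other annotated genes on both strands and Bdnf overlaps 1 on the other strand. Whether any of their counts come from those genes was not tested.

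After filtering, 9053 cells of control 1, 7817 of cKO 1, 17014 of control 2 and 12754 of cKO 2 were kept, with median depths of 2123, 2960, 6169 and 7604.5 unique molecular identifiers (UMIs) per cell. Levels are in CPM, the summed UMIs of a gene scaled to a common total of all UMIs in the same cells, and UMI counts from 3′ ends are not scaled by gene length. Any 2 libraries shared 21 to 57 cell barcodes. Fibroblast-gated cells made up 96.9%, 97.9%, 83.8% and 86.2% of the kept cells in that order, while Schwann-gated cells were absent from both batch 1 libraries. The files name different Cell Ranger versions for the batches, so that processing, depth and mouse group cannot be told apart between batches. Each ratio of genotypes below stays within a batch, and each main fit carries batch as a term. Where libraries of both batches are ordered or called similar, that reading crosses batches.

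Cells were placed by summed marker UMIs, with none of the 6 genes used, and a gate is a range of a score rather than a cell type. T-zone-gated cells (Ccl21a, Il7, Grem1, Bst1, Trp53inp2) came to 4516, 3854, 4700 and 4903 in the library order above. Ccl19 was left out of that gate because earlier results had it lower in cKO cells. The gates for marginal, adventitial, interferon-high and medullary-type markers held 98 to 811, 43 to 175, 118 to 506 and 354 to 894 cells per library, and gates on Has1/Ecm1 and Mgp/Fbln1, added after the data had been seen, held 53 to 319 and 84 to 567. From 284 to 513 cells per library lay within 10% of the T-zone threshold, and in the interferon-high gate such cells (167 to 376) were about as many as the gated cells. Immunoglobulin genes, which belong to plasma cells, were among the leading genes of the marginal and medullary-type gates, and Cd34 and Ly6c1 among those of the Has1/Ecm1 gate. Follicular dendritic and endothelial gates held at most 5 and 13 cells, and their levels are not given. The follicular dendritic gate of batch 2 (5 cells in control, 1 in cKO) still entered the calculation below that holds gates at control shares.

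Notch2 itself was at 38.7 CPM in control 1, 19.1 in cKO 1, 58.3 in control 2 and 39.4 in cKO 2 over all fibroblast-gated cells. It fell by 0.84 on the log2 scale (SE 0.20, edgeR adjusted p = 0.0246). The sources used here do not give the floxed exons, and counts from the 3′ end need not cover them, so this level does not check the genotype. The receptor gene Notch3 fell by 2.06, and the Notch target genes Hes1 and Heyl fell by 1.69 and 1.86 in the same cells (edgeR adjusted p = 0.000238, 0.000506 and 0.0019).

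Ptn, the pleiotrophin ligand, was the gene of the 6 with the widest gap between genotypes. Over all fibroblast-gated cells it was at 345 CPM in control 1, 24.8 in cKO 1, 295 in control 2 and 76.6 in cKO 2. Both control libraries lay above both cKO libraries, by 13.9-fold in batch 1 and 3.84-fold in batch 2. With batch as a term the fitted difference was -2.91 on the log2 scale. Of 17726 genes tested in these cells, 3.72% passed the edgeR test in either direction, and 1.59% passed as lower in cKO cells, which is given beside these differences as background only.

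The shares of gates also differed between libraries. Has1/Ecm1-gated cells, the fibroblasts with most Ptn, were 84 of 8774 fibroblast-gated cells in control 1 and 53 of 7651 in cKO 1, and 319 of 14266 in control 2 and 73 of 10992 in cKO 2. With every gate, and all cells in no single gate taken as 1 further class, held at its control library's share of UMIs, Ptn in cKO cells came to 28.8 CPM in batch 1 and 106 in batch 2. That left it 12.0-fold and 2.79-fold under control. Cells in no gate gave 40.4% and 35.2% of the control Ptn UMIs and cells in several gates 11.8% and 16.9%, and shifts of makeup among those cells were not held. For Ntrk2 the same step gave 2.63-fold and 1.80-fold, and for Mdk 2.35-fold and 1.74-fold.

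Among control fibroblasts, Ptn was highest in the Has1/Ecm1 gate, followed by the medullary-type, marginal and interferon-high gates, whose ranges over libraries overlapped from each to the next. The Has1/Ecm1 gate had 2008 CPM in control 1, 62.7 in cKO 1, 1056 in control 2 and 581 in cKO 2. Control was higher by 32.0-fold in batch 1 and by 1.82-fold in batch 2, so the 2 batches shared a direction and not a size. The batch 1 cKO value rested on 11 UMIs in 53 cells.

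Medullary-type cells, which express Inmt, Car3, Cyp2f2 and Stc1, had 1099 CPM of Ptn in control 1, 160 in cKO 1, 665 in control 2 and 317 in cKO 2. Marginal-gated cells, which express Cxcl13 and Tnfsf11, had 994, 118, 613 and 189 CPM in the same order. In the interferon-high gate, led by Cxcl9 and Cxcl10, the levels were 908, 47.3, 487 and 81.7 CPM. In each of these 3 gates the control libraries lay above the cKO libraries without overlap, by 6.88-fold to 19.2-fold in batch 1 and by 2.10-fold to 5.96-fold in batch 2.

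Mgp/Fbln1-gated cells had less Ptn, with 391 CPM in control 1, 23.1 in cKO 1, 135 in control 2 and 63.3 in cKO 2. Adventitial-gated cells, marked by Pi16 and Dpp4, did not share one direction over the batches. Their Ptn level was 35.8 CPM in control 1 and 12.3 in cKO 1, but 57.1 in control 2 and 130 in cKO 2. These values came from 5, 6, 36 and 31 UMIs, and the 95% interval of the log2 ratio, which covers counting error only, ran from -3.51 to 0.52 in batch 1 and from 0.44 to 1.92 in batch 2. After thinning to 1000 UMIs, 3.75% and 3.85% of control adventitial-gated cells had a Ptn UMI, no more than the leukocyte-gated cells below. The control level in this gate was thus not told apart from the leukocyte level. Ptn was lower in both batches in 6 of 7 fibroblast gates, among them the T-zone gate, whose Ptn was likewise not told apart from the leukocyte level.

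Schwann- and epithelial-gated cells showed no such gap in batch 2. Schwann-gated cells of batch 2 had 716 CPM of Ptn in control and 677 in cKO, a log2 ratio of -0.08 with an interval from -0.32 to 0.15. Epithelial-gated cells, few in number, had the highest levels of all gates, with 2127 CPM in control 1, 3417 in control 2 and 4014 in cKO 2. Pericyte-gated cells of batch 2 had 26.7 CPM in control and 21.7 in cKO, and smooth muscle-gated cells had 37.0 and 44.7. Both control levels lay under the 60.7 CPM of leukocyte-gated cells of control 2. After thinning, 17 of 809 control and 2 of 506 cKO pericyte-gated cells had a Ptn UMI. Whether mural cells had a gap could thus not be read. In batch 1 these lineages held too few cells to read, and the difference from the fibroblast gates was not tested.

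**Figure D1:**
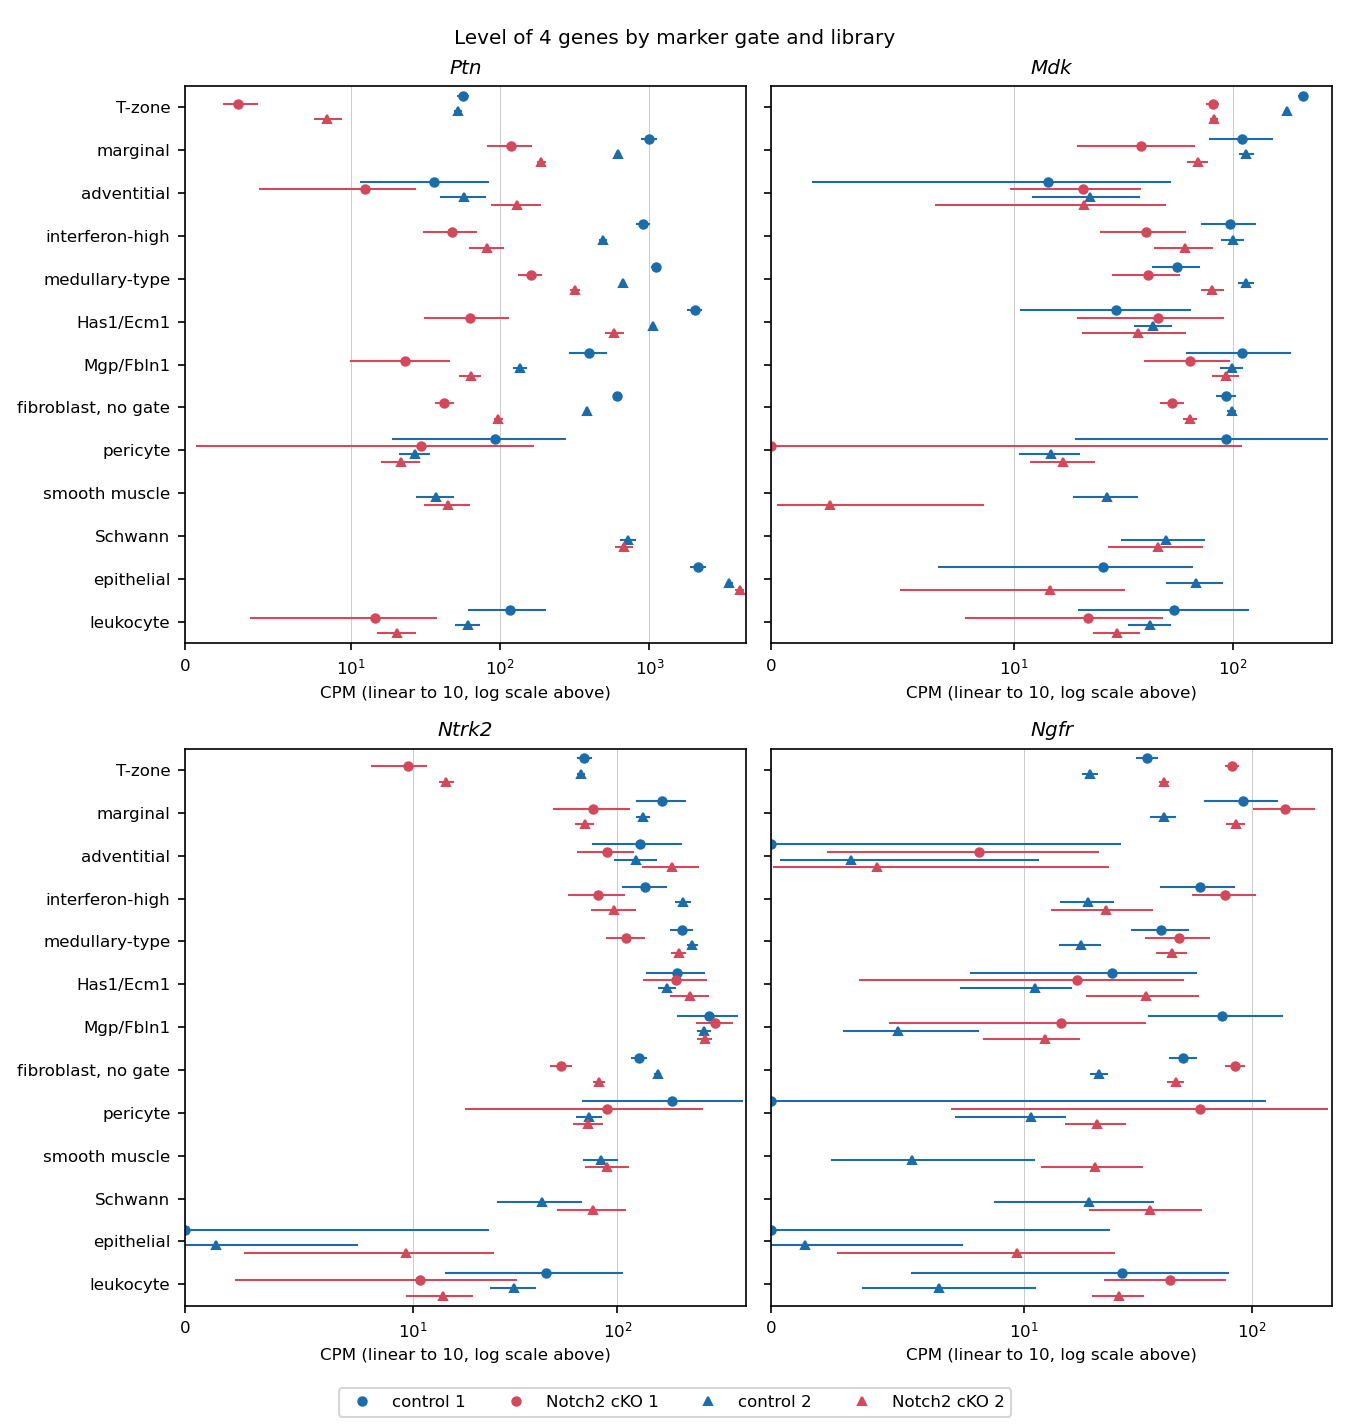
Levels of Ptn, Mdk, Ntrk2 and Ngfr (CPM, horizontal axis linear to 10 and logarithmic above) in each marker gate (rows), by library (blue for control, red for cKO, circles for batch 1, triangles for batch 2), with 95% Poisson intervals for counting error only. Ptn in the medullary-type gate sits at 1099 and 665 CPM in control against 160 and 317 in cKO, while in the Schwann gate it is 716 against 677.

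T-zone-gated cells, the largest gate, held little Ptn. Its level there was 56.4 CPM in control 1, 3.22 in cKO 1, 52.3 in control 2 and 8.59 in cKO 2, a ratio of 17.5-fold in batch 1 and 6.09-fold in batch 2. In the controls they were 51.5% and 32.9% of fibroblast-gated cells and gave 9.03% and 7.0% of the Ptn UMIs. Cells in no gate gave most, as stated above, and medullary-type cells, at 7.96% and 6.27% of the cells, gave 20.2% and 12.4%.

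The T-zone level of Ptn was no higher than that of leukocyte-gated cells, which should not make it. Leukocyte-gated cells, which the CD45 depletion and sort were meant to remove, had 117, 14.5, 60.7 and 20.4 CPM in the order control 1, cKO 1, control 2 and cKO 2. With every cell thinned to 1000 UMIs, a Ptn UMI was found in 4.10%, 0.26%, 4.02% and 0.82% of T-zone-gated cells and in 4.76%, 0%, 4.07% and 0.85% of leukocyte-gated cells. Unthinned, T-zone shares were 7.99%, 0.83%, 18.1% and 4.30% at median depths of 2302.5, 3218, 8032.5 and 10343 UMIs, and leukocyte shares 11.9%, 3.90%, 13.0% and 6.80% at 2354, 3082, 4293 and 4448. In batch 2, thinned pericyte-gated cells had a Ptn UMI in 17 of 809 control and 2 of 506 cKO cells. For T-zone-gated cells of batch 2 these were 189 of 4700 and 40 of 4903. The T-zone signal of Ptn was thus not told apart from the leukocyte level, and whether T-zone cells express it cannot be read from these shares. Leukocyte-gated cells also carried stromal RNA, with summed T-zone markers at 2872 to 4643 CPM against 17126 to 23407 in T-zone-gated cells, and the part of cell doublets in this was not tested.

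Shares in medullary-type and marginal-gated cells stood above the leukocyte shares in each library, although the marginal and leukocyte intervals overlapped in cKO 1. A Ptn UMI was found, after thinning, in 54.2% of medullary-type cells of control 1 and 11.6% of cKO 1, and in 36.0% of control 2 and 19.5% of cKO 2. Their unthinned shares were 67.6%, 22.0%, 76.8% and 43.1%. Marginal-gated cells gave 50.3%, 6.12%, 37.7% and 14.0% after thinning. Shares of cells with a Ptn UMI and levels summed over the cells of these gates were both lower in cKO. These values do not separate fewer Ptn-positive cells from less Ptn per positive cell.

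**Figure D2:**
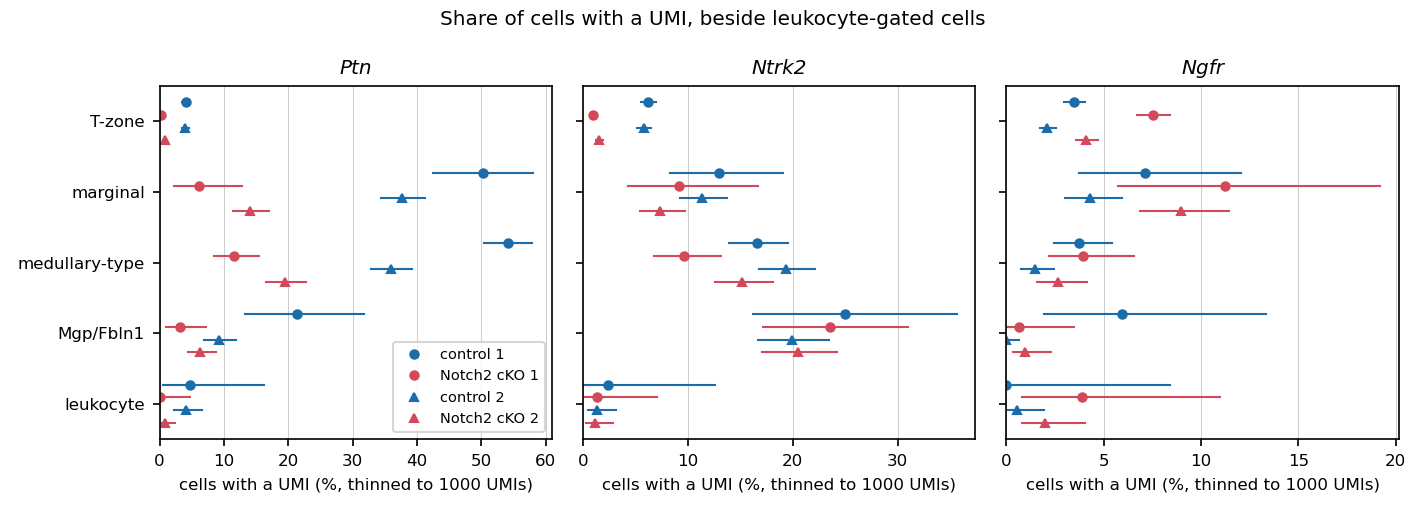
Percent of cells with at least 1 UMI of Ptn, Ntrk2 or Ngfr after thinning each cell to 1000 UMIs (horizontal axis) in 4 fibroblast gates and in leukocyte-gated cells (rows), by library, with 95% Clopper-Pearson intervals for counting error only. Ptn in T-zone-gated cells (4.10% and 4.02% in control) sits at the level of leukocyte-gated cells (4.76% and 4.07%), while medullary-type control cells reach 54.2% and 36.0%.

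Mdk, the midkine ligand, had another distribution from Ptn. Among the gates, T-zone-gated cells had the highest level in both controls, with 210 CPM in control 1 and 177 in control 2. In cKO they had 81.0 CPM in batch 1 and 82.3 in batch 2. The Mgp/Fbln1 gate had 63.6 CPM in cKO 1 and 92.9 in cKO 2, so the T-zone gate did not lead in cKO 2. Control libraries lay above cKO libraries in T-zone-gated cells by 2.59-fold and 2.15-fold. T-zone-gated cells gave 71.2% of the Mdk UMIs of control 1 and 52.3% of those of control 2. Over all fibroblast-gated cells the levels were 163, 69.3, 133 and 78.9 CPM, with a fitted log2 difference of -1.04.

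Mdk was lower in cKO cells of both batches in the marginal, interferon-high and medullary-type gates as well. Marginal-gated cells had 111, 38.1, 115 and 69.1 CPM in the order control 1, cKO 1, control 2 and cKO 2, and interferon-high cells had 1.66-fold more in control 2 than in cKO 2 and 2.42-fold more in control 1 than in cKO 1. Medullary-type cells had 55.4, 40.8, 115 and 80.7 CPM, with a batch 1 interval of the log2 ratio that held 0 (-1.07 to 0.16). In the Mgp/Fbln1 gate the interval of the log2 ratio held 0 in both batches (-1.81 to 0.25 and -0.34 to 0.15). The same was true of the Has1/Ecm1 and adventitial gates. Smooth muscle-gated cells of batch 2 had 26.5 CPM in control and 2.41 in cKO, from 38 and 2 UMIs. Leukocyte-gated cells had 53.8, 21.8, 41.7 and 29.6 CPM of Mdk, below the T-zone gate in every library.

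Detection of Mdk and Ptn in the same cell is given as a description, since their levels differ between gates. Among all fibroblast-gated cells of control 1, thinned to 1000 UMIs, 7.53% of cells with a Ptn UMI and 15.1% of the others had an Mdk UMI. In control 2 the shares were 8.72% and 11.2%. In the cKO libraries they were 6.06% against 6.17% and 7.07% against 6.89%. Over 43 points of gate and library, log2 levels of the 2 ligands correlated at r = 0.21, a description over points that share libraries and differ in depth.

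Ntrk2 encodes TrkB, the receptor of Bdnf. It was at 101 CPM in control 1, 39.1 in cKO 1, 128 in control 2 and 55.1 in cKO 2 over all fibroblast-gated cells. Control was higher by 2.59-fold and 2.32-fold, and the fitted log2 difference was -1.34. The 2 batches were closer to each other here than for Ptn.

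The T-zone gate showed the widest Ntrk2 gap. Its levels were 68.9 CPM in control 1, 9.80 in cKO 1, 66.4 in control 2 and 14.6 in cKO 2, a ratio of 7.03-fold and 4.54-fold. After thinning, 6.24% and 5.81% of control T-zone-gated cells had an Ntrk2 UMI, against 2.38% and 1.36% of leukocyte-gated cells. The control signal in batch 2 was thus above the leukocyte level beyond counting error. In batch 1 the leukocyte interval (0.06% to 12.6%) was too wide to tell. In cKO the T-zone shares were 0.99% and 1.53%, against 1.30% and 1.13% of leukocyte-gated cells (1 of 77 and 4 of 353). So few positive leukocyte-gated cells cannot separate low expression from background in cKO. The T-zone ratios may be limited by background.

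Ntrk2 was also lower in cKO cells of 3 further gates in both batches. Marginal-gated cells had 165, 76.2, 133 and 69.3 CPM in the order control 1, cKO 1, control 2 and cKO 2. The interferon-high gate had 136, 80.0, 209 and 96.4 CPM. Medullary-type cells had 206, 110, 232 and 199 CPM, where the batch 2 ratio was 1.17-fold.

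Cells of the Mgp/Fbln1 gate had the most Ntrk2 and nearly the same level in each library. They had 280 CPM in control 1, 300.4 in cKO 1, 265 in control 2 and 266 in cKO 2. The log2 ratio was 0.10 in batch 1 (interval -0.45 to 0.68) and 0.01 in batch 2 (-0.14 to 0.16), so a 2-fold difference lay outside both counting intervals. The Has1/Ecm1 gate had 194, 194, 175 and 226 CPM, and its batch 2 interval of the log2 ratio lay above 0 (0.03 to 0.69). Adventitial-gated cells had 129, 88.5, 124 and 184 CPM. Their intervals ran from -1.37 to 0.34 in batch 1 and from 0.0048 to 1.12 in batch 2. Pericyte-gated cells of batch 2 had 72.6 and 72.2. Whether these gates differ from the T-zone gate in their response was not tested.

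The share of cells with Ntrk2 was higher among cells with Ptn in each library, a description since both genes differ between gates. Among fibroblast-gated cells thinned to 1000 UMIs, 16.2% of cells with a Ptn UMI and 7.90% of the others had an Ntrk2 UMI in control 1, and 16.8% and 10.3% in control 2. In cKO the shares were 10.3% and 3.91% in batch 1 and 13.9% and 5.70% in batch 2. Within T-zone-gated cells of the controls the shares were 8.65% against 6.14% and 7.41% against 5.74%, from 16 and 14 cells with both. Medullary-type control cells had 20.4% against 12.2% and 20.5% against 18.7%. The order did not hold within every gate. Mgp/Fbln1-gated cells had 33.3% against 22.7% in control 1 but 11.5% against 20.8% in control 2. Has1/Ecm1-gated cells had 16.1% against 7.14% in control 1 but 13.5% against 16.9% in control 2.

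**Figure D3:**
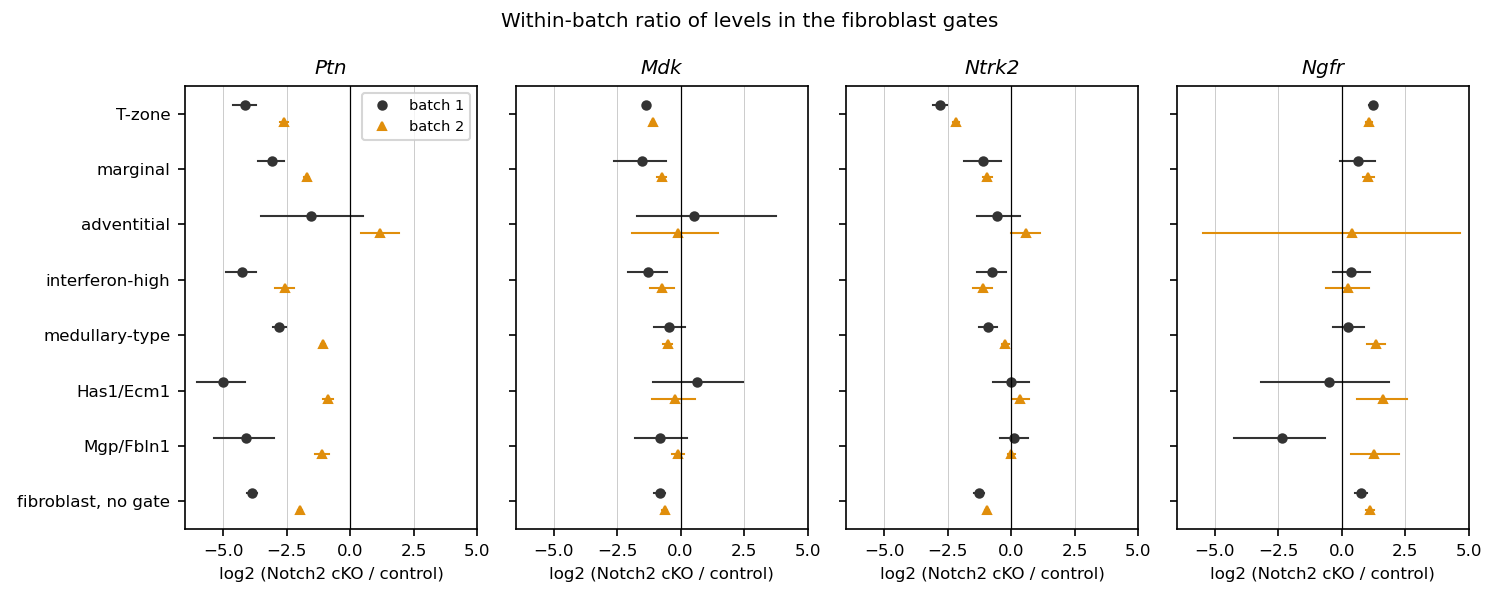
Within-batch log2 ratio of levels, cKO over control (horizontal axis), for Ptn, Mdk, Ntrk2 and Ngfr in the fibroblast gates and in fibroblast-gated cells with no gate (rows), with exact 95% intervals that cover counting error only (black circles for batch 1, orange triangles for batch 2). Ptn lies left of 0 in both batches in 6 of 7 gates, Ntrk2 lies at 0.10 and 0.01 in the Mgp/Fbln1 gate, and Ngfr lies at 1.23 and 1.09 in the T-zone gate, and no ratio is drawn for Ngfr in the adventitial gate of batch 1, where control had 0 UMIs.

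Ngfr, the p75 receptor shared by the neurotrophins, went the other way. Over all fibroblast-gated cells it was at 40.5 CPM in control 1, 78.2 in cKO 1, 20.7 in control 2 and 45.5 in cKO 2. cKO was higher by 1.93-fold and 2.20-fold within batches, although control 1 and cKO 2 had similar levels. The fitted log2 difference was 0.99, and 2.13% of all tested genes passed as higher, given as background only.

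T-zone-gated cells had 34.7 CPM of Ngfr in control 1, 81.4 in cKO 1, 19.4 in control 2 and 41.2 in cKO 2. Marginal-gated cells had the highest levels, 90.9, 140, 40.9 and 84.7 CPM in that order, and the batch 1 interval of their log2 ratio held 0 (-0.07 to 1.33). Medullary-type cells had 39.8, 47.8, 17.7 and 44.5 CPM. Interferon-high cells had intervals that held 0 in both batches (-0.33 to 1.10 and -0.61 to 1.06), and so did medullary-type cells in batch 1 (-0.36 to 0.89). Ngfr had a ratio above 1 in both batches in 4 of 7 fibroblast gates, and only in the T-zone gate did both intervals lie above 0. The adventitial gate is not among the 4, since its batch 1 ratio is undefined (0 UMIs in control, 4 in cKO). In batch 2 it had 3.17 CPM in control and 4.18 in cKO, from 2 and 1 UMIs.

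Other gates gave few Ngfr counts. The Mgp/Fbln1 gate had 73.7 CPM in control 1 and 14.4 in cKO 1, from 10 and 5 UMIs, but 5.02 in control 2 and 12.3 in cKO 2. Leukocyte-gated cells had 26.9, 43.6, 6.63 and 26.0 CPM, so the same direction appeared in cells that should hold little Ngfr of their own. In batch 2, pericyte-gated cells had 10.7 CPM in control and 20.8 in cKO (log2 ratio interval 0.28 to 1.66). Smooth muscle-gated cells had 5.58 and 20.5 (0.59 to 3.30, from 8 and 17 UMIs). Schwann-gated cells had 19.3 and 35.5, with an interval that held 0 (-0.43 to 2.27). Whether the rise is particular to fibroblasts was not tested. After thinning, 2.11% and 4.10% of batch 2 T-zone-gated cells had an Ngfr UMI against 0.54% and 1.98% of leukocyte-gated cells.

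Ntrk3, the TrkC receptor of Ntf3, had its highest batch 2 levels in smooth muscle-, Schwann- and Mgp/Fbln1-gated cells. In batch 2 it was at 220 CPM in smooth muscle-gated control cells and 148 in cKO, and at 92.2 and 248 in Schwann-gated cells. Pericyte-gated cells had 15.7 and 6.20 CPM, beside 13.3 and 19.2 in leukocyte-gated cells. Mgp/Fbln1-gated cells had 29.5 CPM in control 1, 0 in cKO 1, 80.7 in control 2 and 113 in cKO 2, and the adventitial gate had 7.15, 8.23, 71.4 and 12.5. No single direction held over these gates.

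T-zone-gated cells were nearly without Ntrk3, at 0.09, 0, 1.50 and 1.39 CPM, from 1, 0, 62 and 74 UMIs. Over all fibroblast-gated cells its level was 0.99 CPM in control 1, 0.49 in cKO 1, 8.99 in control 2 and 8.82 in cKO 2. The batches differed far more than the genotypes did, and the batch 1 values rest on 20 and 12 UMIs.

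Bdnf, the ligand of Ntrk2, was close to the limit of detection. All fibroblast-gated cells together gave 3 UMIs in control 1, 1 in cKO 1, 19 in control 2 and 27 in cKO 2, or at most 0.28 CPM. Pericyte-gated cells of batch 2 had 34 UMIs (11.4 CPM) in control and 4 (1.77 CPM) in cKO, and epithelial-gated cells had 25 (33.8 CPM) and 5 (12.1 CPM). The Mgp/Fbln1 gate of batch 2 had 6 and 18 UMIs, with an interval of the log2 ratio from 0.48 to 3.50, and 0 UMIs in both batch 1 libraries. Over all fibroblast-gated cells no Bdnf difference between genotypes could be read at this depth.

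**Figure D4:**
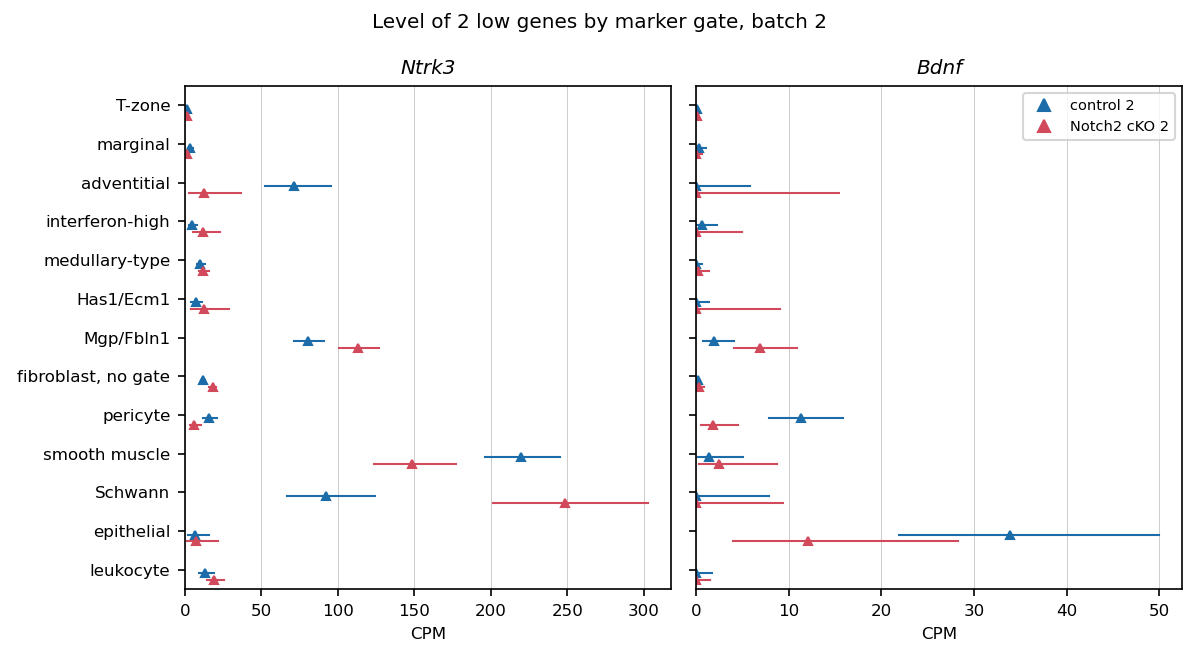
Levels of Ntrk3 and Bdnf (CPM, linear axes) by marker gate (rows) in control 2 (blue) and cKO 2 (red), with 95% Poisson intervals for counting error only. Ntrk3 reaches 220 CPM in smooth muscle-gated and 248 in Schwann-gated cells, and Bdnf stays at or under 6.91 CPM in every fibroblast gate.

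Other ligands and receptors of the neurotrophin family and their partners are given from 6 lists that were drawn up with earlier results of these data known, so the counts of calls are a description and no independent evidence. Among the 60 genes of these lists that could be tested in all fibroblast-gated cells, 7 rose and 1 fell by the edgeR test with batch as a term (13.3% of those tested, beside 3.72% of all genes). In T-zone-gated cells 7 of 59 rose and 1 fell (13.6%, beside 4.78% of all genes, of which 2.51% as higher and 2.27% as lower), and in adventitial-gated cells 0 of 25 passed, with 1 of 25 at an unadjusted p under 0.05 and 0 by DESeq2, where 0.119% of all genes were called (0.0508% as higher and 0.0677% as lower). The 8 all-fibroblast calls came to 0 with library-size scaling and with stricter cell filters. In both gates the count was 0 in fits without the batch term, which include each fit that leaves out 1 of the 4 libraries.

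Ntf3, the neurotrophin that binds TrkC, rose in both tested gates. T-zone-gated cells had 18.2 CPM in control 1, 32.8 in cKO 1, 22.8 in control 2 and 46.8 in cKO 2 (log2 difference 0.88, SE 0.18, edgeR adjusted p = 0.0242). Both cKO libraries lay above both controls. The difference over all fibroblast-gated cells was 0.86 (SE 0.20, edgeR adjusted p = 0.0278), a call that DESeq2 did not make (0 of 9 genes of the list).

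Sorcs2, a sortilin-type receptor for proneurotrophins, was abundant and did not pass in either gate. Over all fibroblast-gated cells it had 85.5 CPM in control 1, 98.0 in cKO 1, 112 in control 2 and 141 in cKO 2, a log2 difference of 0.21 (SE 0.20, edgeR adjusted p = 0.849).

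Receptors and co-receptors of Ptn and Mdk gave 1 call. Of 16 tested in all fibroblast-gated cells only the receptor kinase Alk rose, with 2.96 CPM in control 1, 4.96 in cKO 1, 17.6 in control 2 and 43.1 in cKO 2 (log2 difference 1.00, SE 0.23, edgeR adjusted p = 0.0254), and DESeq2 called 0 of 17. In T-zone-gated cells 0 of 15 passed by edgeR and 1 of 17 by DESeq2, as lower, and Alk had a difference of 0.73 there (edgeR adjusted p = 0.0968). The list's medians were 0.07 in all fibroblast-gated and 0.22 in T-zone-gated cells.

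The most abundant of these receptors did not pass the test in either gate. Nrp1, a co-receptor with many ligands, had 526 CPM in control 1, 279 in cKO 1, 433 in control 2 and 336 in cKO 2, a log2 difference of -0.69 (edgeR adjusted p = 0.206). Nucleolin (Ncl) had a difference of 0.05. Over all fibroblast-gated cells Ptprz1, named here after its values were seen and the receptor phosphatase best known for binding pleiotrophin, stayed at 0.24 to 1.38 CPM.

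Factors and receptors of the GDNF family, which signal through the kinase Ret, were the list with most calls. Gfra2, the co-receptor for neurturin, had 112 CPM in control 1, 297 in cKO 1, 74.9 in control 2 and 198 in cKO 2 in T-zone-gated cells, and its log2 difference was 1.35 (SE 0.22, edgeR adjusted p = 0.00649). Ret rose by 2.17 (SE 0.35) from low levels of 0.72, 4.56, 1.42 and 5.92 CPM. Nrtn, which encodes neurturin, rose by 2.05 (SE 0.41) and had at most 3.85 CPM. The edgeR adjusted p was 0.00682 for Ret and 0.0217 for Nrtn.

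All 3 of these genes passed over all fibroblast-gated cells as well, at 1.29, 1.92 and 1.65. Of the list's 7 tested genes 3 rose in each gate, against 2 of 9 by DESeq2, and the median log2 difference was 1.29 in all fibroblast-gated and 1.35 in T-zone-gated cells beside 0.02 for all genes. Manf and Gfra1, the others with most counts, did not pass in either gate.

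Enzymes and partners of the neurotrophin receptors gave 1 call each. The protease Mmp3, which can cleave proneurotrophins, had 30.4 CPM in control 1, 88.0 in cKO 1, 29.9 in control 2 and 83.1 in cKO 2 in T-zone-gated cells (log2 difference 1.44, SE 0.19, edgeR adjusted p = 0.00224). Rtn4r, the Nogo receptor that pairs with p75, had 54.5, 93.2, 32.1 and 65.9 CPM (log2 difference 0.85, SE 0.18, edgeR adjusted p = 0.0287). Both also rose over all fibroblast-gated cells, by 1.02 and 1.16. Furin, Plat, Maged1 and Kidins220 did not pass.

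Early response genes downstream of growth factor receptors gave 1 call over all fibroblast-gated and 1 in T-zone-gated cells. Egr2 fell over all fibroblast-gated cells, from 59.5 to 37.6 CPM in batch 1 and from 95.4 to 52.5 in batch 2 (log2 difference -0.82, edgeR adjusted p = 0.0273), and Etv5 rose in T-zone-gated cells by 1.24 (edgeR adjusted p = 0.0294), which DESeq2 did not call. Fos and Egr1, which tissue digestion can induce, had the most counts and did not pass. The medians of this list were 0.05 in both gates, with differences in both directions from Etv4 at 1.93 to Egr2 at -0.82 over all fibroblast-gated cells, and Etv4, chosen after its value was seen, did not pass.

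**Figure D5:**
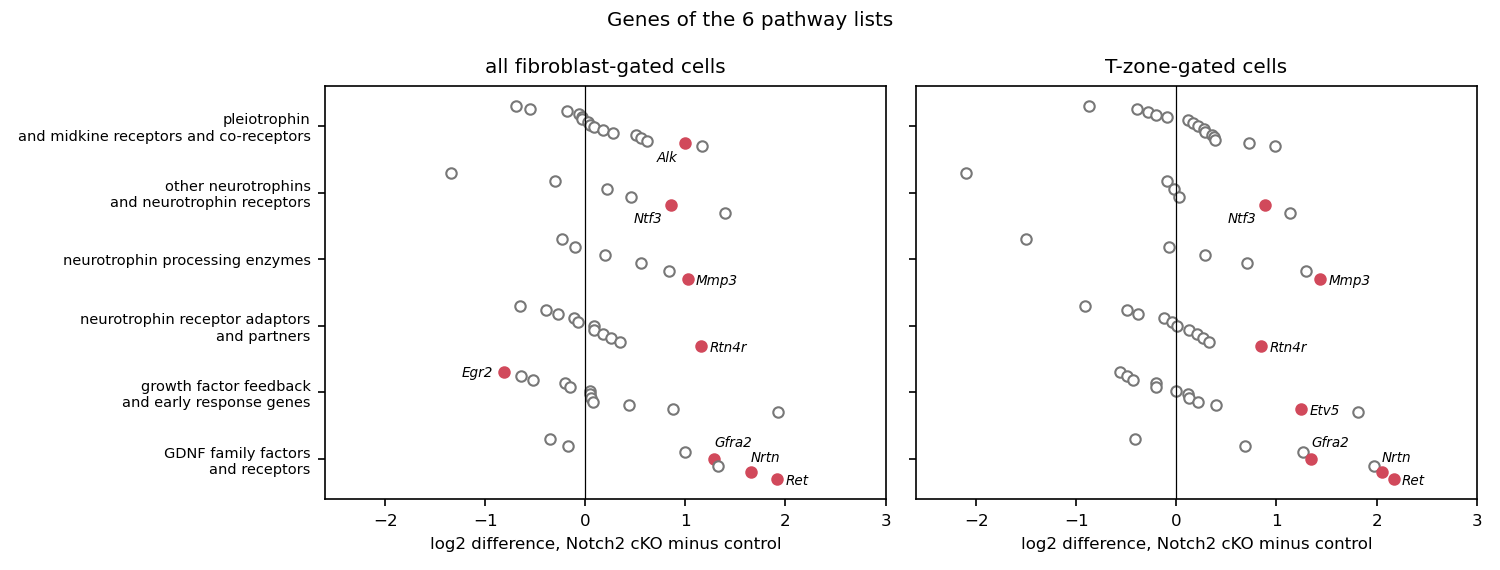
Log2 difference, cKO minus control (horizontal axis), of tested genes of 6 pathway lists (rows) in all fibroblast-gated and in T-zone-gated cells. Filled and named points passed the edgeR test at an adjusted p under 0.05, open points did not, and of the GDNF family list Gfra2, Nrtn and Ret are filled in both panels.

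Genes with the most similar pattern to each of the 6 were sought among 9209 genes with a mean of at least 10 CPM, by Pearson correlation of log2(CPM + 1) over the 43 points of 12 gates and 4 libraries with at least 20 cells. Ntrk2 was most like Ecm2 (r = 0.89), Ccdc80 (r = 0.88) and Tbx18 (r = 0.85), and Ngfr most like Ndnf (r = 0.83), Crym (r = 0.78) and Bace2 (r = 0.76). Mdk was most like Slc1a3 (r = 0.76), Mbd1 (r = 0.76) and Msc (r = 0.74), and Ptn reached only r = 0.70 with Edf1, 0.64 with Tst and 0.61 with Vmp1. For Ntrk3 these were Adam22, Pcdh9 and Psip1 (r = 0.82, 0.79 and 0.76) and for Bdnf Lmo7, Prkar2b and Pip4k2c (r = 0.82, 0.69 and 0.68). The points share libraries, and gates with few cells add counting noise, so these values are descriptions. Among the 6 genes themselves r ran from -0.42 (Mdk with Bdnf) to 0.21 (Ntrk2 with Ngfr).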

How the data were processed

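The deposited matrices hold raw UMI counts per gene and barcode, made with Cell Ranger 5.0.1 (batch 1) and 7.1.0 (batch 2) per the file headers, while the submitters' processing notes name Cell Ranger 5.0.1 and mm10. Intron counting is not stated in them. Filters on cells were a minimum of 500 genes and of 1000 UMIs and a maximum of 10% mitochondrial counts. The 6 genes, the gene lists, the gates and their thresholds were chosen with earlier results of these data known.

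Gates were sums of marker UMIs per 10000, with at least 3 marker UMIs: 60 for T-zone and interferon-high, 30 for marginal and adventitial, 20 for medullary-type and Mgp/Fbln1, 10 for Has1/Ecm1 and follicular dendritic, and 20 for fibroblast markers. Other lineages needed 15 from 2 genes, and mural cells 40. Cells passing several gates or lineages entered no single gate, and no doublet caller was run.

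Counts were summed per library and gate and tested with edgeR 4.0.16 (quasi-likelihood, TMM, filterByExpr, Benjamini-Hochberg 0.05, R 4.3.3) with batch as a term and 1 residual degree of freedom. The labels give replicate numbers as batches, and same-batch deviations correlated at 0.815, 0.823 and 0.513 across genes in all fibroblast-, T-zone- and adventitial-gated cells. Each library pools mice, so the spread between mice is not measured. With batch as a term, p-values measure how far the genotype difference varied between the 2 batches, with dispersion shared across genes. DESeq2 1.42.0 was an alternative. Intervals (95%, scipy 1.17.1) cover counting error only. Named genes were Notch2, Notch3, Hes1, Heyl, the 6 genes, list genes past the test in any gate and up to 2 more per list with the highest mean CPM. Some list genes are counted in the totals but are not reported here by name or drawn.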

Additional observations from a re-analysis of the deposited data

Results flagged for a closer look

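Ntrk2 moved one way in both batches of 4 gates and the other way, if barely, in both batches of another, and the difference between gates was not tested. Its within-batch log2 ratio of cKO over control was 0.10 and 0.0095 in Mgp/Fbln1-gated cells. It was -2.81 and -2.18 in T-zone-gated cells, -1.11 and -0.94 in marginal-gated cells, -0.77 and -1.12 in interferon-high cells, and -0.91 and -0.23 in medullary-type cells. Both Mgp/Fbln1 intervals held 0 (-0.45 to 0.68 and -0.14 to 0.16). Groups of 2 libraries were too small for a search for outlying samples.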

How the results depend on the processing

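The directions of Ptn, Mdk, Ntrk2 and Ngfr held under all 11 alternatives in all fibroblast-gated cells (log2 differences of -3.69 to -2.21, -1.31 to -0.84, -1.54 to -1.19 and 0.42 to 1.61) and in T-zone-gated cells (-4.09 to -2.80, -1.50 to -1.15, -2.81 to -2.34 and 0.47 to 1.65). Under these alternatives 13 values of the 6 genes turned direction, all for Ntrk3, Bdnf or adventitial-gated cells, and their cause was not tested. Counts of calls over all fibroblast-gated cells moved from 659 to 125 with library-size scaling, 1146 with no low-count filter, 165 with stricter cells, 379 with a stricter gate and 396 without the cells of most UMIs, and pathway calls from 8 to 0, 14, 0, 4 and 4 in that order and to 5 with DESeq2. With no low-count filter, T-zone calls went from 749 to 1231, pathway calls there from 8 to 13, and adventitial calls from 7 to 11. Adventitial calls were 1 with a stricter gate and 0 with DESeq2, and 1 pathway gene was called there with stricter cells.

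Without the replicate block, that is with no batch term, the pairing is ignored, and this fit gave 0 calls in each of the 3 gates and 0 pathway calls. In it 254 genes were higher and 184 lower over all fibroblast-gated cells at an unadjusted p under 0.05 by edgeR, and 346 and 316 in T-zone-gated cells. Leaving out 1 library gave 0 to 21 calls over all fibroblast-gated cells (21 without cKO 2) and 0 in T-zone-gated and adventitial-gated cells, with 0 pathway calls in each. These fits have no batch term, and a lone library is assumed to vary like the other group.

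Values that turned direction were those of Bdnf over all fibroblast-gated cells (-0.089 with no replicate block, -0.12 with a stricter gate, -0.53 with DESeq2, and -0.13 to 0.59 leaving out 1 library), of Ntrk3 leaving out 1 library (-3.30 to 1.98 over all fibroblast-gated and -7.18 to 2.76 in T-zone-gated cells), and of 2 genes in adventitial-gated cells. There Ptn was -0.020 with DESeq2 and -1.97 to 1.25 leaving out 1 library, and Ntrk2 was -0.10 with a stricter gate and -0.50 to 0.42 leaving out 1 library. In batch 1 these values rest on 20 and 12 UMIs of Ntrk3 and 3 and 1 of Bdnf over all fibroblast-gated cells.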
